A study of Mus musculus with 110 samples.

Results

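The VH gene segments Ighv2-2-like_114846142 and Ighv5-4-like_114855361 are the third and the fourth used VH segments, counted from the D segments, of the mouse immunoglobulin heavy chain locus (Igh). They are 2 of the 146 VH segments, and of the 172 VH and D segments together, that were found in these data. A junction read was counted at a segment where its prey end lay on chromosome 12 within 100 bp of that position. This took 31353 junctions for Ighv2-2-like and 16056 for Ighv5-4-like, 47409 together, out of 3602400 junctions in all libraries. Within the VH region, positions 114829805 to 117639092 of the files' genome, lay 312039 junctions. Of these, Ighv2-2-like held 10.048% and Ighv5-4-like 5.146%.

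In developing B cells, the RAG endonuclease cuts at recombination signal sequences, each a conserved heptamer and nonamer separated by a spacer, and joins first a D to a JH segment and then a VH to the DJH. RAG bound near the JH segments reaches distant VH segments by scanning along chromatin that the ring-shaped cohesin complex extrudes as a loop. The zinc-finger protein CTCF stops cohesin, and its sites lie in IGCR1, a regulatory stretch upstream of the D segments, and next to the signal sequences of many of the VH segments nearest to the D segments. Ighv2-2 belongs to the Ighv2 family, also called Q52, and Ighv5-4 to the Ighv5 family, whose members alternate at this D-proximal end. Their neighbour Ighv5-2, known as VH81X, is the VH most used in the early joins of many pro-B cells.

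Junctions were measured by LAM-HTGTS, a linear amplification from a bait at JH4 that reads whatever DNA (the prey) the bait was joined to, in 98 libraries of 13 groups and 56 replicates. All cell lines were pro-B cells transformed with v-Abl that were RAG2 deficient and carried the Emu-Bcl2 transgene. They received RAG2 by nucleofection and the Abl inhibitor STI-571 at 3 uM for 4 days, which arrests the cells. Groups given the auxin IAA received 500 uM from 6 h before STI-571 and throughout, which breaks down a degron-tagged protein where OsTIR1 is present. The parental line carried no further change (4 replicates with and 4 without IAA). The line with Ostir1 knocked in had no degron, and the CTCF-mAID-GFP line had the tag only, with 4 replicates per treatment each. The CTCFdegron line (6 replicates per treatment) loses CTCF with IAA. The Rad21degron line (3 per treatment) loses Rad21, a subunit of cohesin, and a Rad21degron derivative without IGCR1 (4 per treatment) carries this deletion with and without IAA. Bone marrow pro-B cells came from wild-type 129SV mice (6 replicates) and were sorted as B220+CD43+IgM- where the labels say so (replicates 2 to 6); the labels of replicates 4 to 6 also carry the STI-571 treatment. The labels do not say whether replicates were separate cultures or animals, or whether a line is a single clone, so p-values measure the spread between these samples. In 4 libraries titled IAA the treatment label lacks IAA, and the title was followed. In the CTCFdegron line these are library a of replicate 4 and both libraries of replicate 5. In the IGCR1-deleted line it is the only library of replicate 4.

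A replicate held 1263 to 2492 junctions in the IAA group of the Rad21degron line, 1608 to 2668 in that of its IGCR1-deleted derivative, and 5329 to 231023 in the other 11 groups. Most replicates of the lines have an a and a b library, which the labels do not explain; the 2 were summed, and the IGCR1-deleted line has b only. In 29 of 39 replicates Ighv2-2-like, and in 34 of 39 Ighv5-4-like, had a lower share of all junctions in b than in a. Intervals and floors cover counting error only.

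The joined ends of the members and their neighbours are shown side by side. They do not by themselves tell the members from related genes. The Ighv5-4-like end differs from that of Ighv5-6-like_114883413 only in the next to last base shown. Each line gives the 60 bases that end at the most used junction position of the segment, with libraries weighted equally. The bases were read from the prey sequences and are given 5′ to 3′ on the coding strand. The codon of the conserved cysteine that ends framework 3 is in capitals.
Ighv5-6-like_114830805: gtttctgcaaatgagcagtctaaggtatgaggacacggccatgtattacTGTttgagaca
Ighv5-2-like_114836377: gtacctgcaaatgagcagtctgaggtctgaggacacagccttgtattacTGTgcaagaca
Ighv2-2-like_114846142: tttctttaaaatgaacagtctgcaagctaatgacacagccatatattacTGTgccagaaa
Ighv5-4-like_114855361: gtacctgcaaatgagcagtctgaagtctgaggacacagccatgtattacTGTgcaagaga
Ighv2-3-like_114869105: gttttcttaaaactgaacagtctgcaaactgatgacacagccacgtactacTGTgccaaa
Ighv5-6-like_114883413: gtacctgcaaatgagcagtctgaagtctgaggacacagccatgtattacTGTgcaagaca
Up to that position Ighv2-2-like has 8 bases after this codon, as do Ighv5-4-like, Ighv5-2 and both Ighv5-6-like segments, while Ighv2-3-like has 6. Joins can be trimmed, so the position need not be the end of the unjoined segment. Over 309 aligned bases the 2 members were 66.0% identical to each other. Ighv2-2-like was closest among the other VH segments of these data to Ighv2-2-like_115073093 (98.8% over 340 bases), and Ighv5-4-like to Ighv5-9-like_115015512 (96.7% over 338 bases). Set against the 10 closest relatives over the whole aligned prey, 99.9% of the reads counted at each member matched that member's own consensus best, 29889 of 29917 at Ighv2-2-like and 15870 of 15887 at Ighv5-4-like. The consensus was built from the same reads, so this bears on mixing within the counted reads and not on how the authors placed them.

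The closest genes of the mm9 genome were Ighv2-2 (Gm16970, chr12:114826478-114826911, 99.7% identity) and Ighv5-4 (Gm16971, chr12:114835657-114836116, 97.1% identity). Both lie on the minus strand of chromosome 12 and are V gene segments whose 3′ end is the recombining end. In the files' genome the 2 members lay 9219 bp apart. Ighv2-2-like lay 9765 bp beyond Ighv5-2, and the next VH, Ighv2-3-like_114869105, lay 13744 bp beyond Ighv5-4-like.

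The 150 bases that follow 4 of these genes in mm9 (minus strand, 5′ to 3′) are shown for the signal sequence that RAG cuts and for a CTCF-like motif. Capitals mark the heptamer, the nonamer after a spacer of 23 bases, and matches to CCNNNAGNNGGC, the core letters used here for a CTCF-like motif. The mm9 genome is of another strain than the Igh part of the genome used for alignment, so these flanks stand for the closest genes only.
Ighv5-2 flank, chr12:114816565-114816714: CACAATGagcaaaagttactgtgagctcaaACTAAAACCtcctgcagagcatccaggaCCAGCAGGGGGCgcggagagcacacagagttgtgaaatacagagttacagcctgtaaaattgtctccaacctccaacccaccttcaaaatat
Ighv2-2 flank, chr12:114826328-114826477: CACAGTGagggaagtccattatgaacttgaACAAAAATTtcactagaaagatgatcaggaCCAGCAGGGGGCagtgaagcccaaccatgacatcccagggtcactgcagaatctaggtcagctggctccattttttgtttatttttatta
Ighv5-4 flank, chr12:114835507-114835656: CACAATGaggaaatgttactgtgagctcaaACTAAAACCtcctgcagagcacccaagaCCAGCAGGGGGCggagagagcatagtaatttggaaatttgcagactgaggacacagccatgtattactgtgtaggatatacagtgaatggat
Ighv2-3 flank, chr12:114849245-114849394: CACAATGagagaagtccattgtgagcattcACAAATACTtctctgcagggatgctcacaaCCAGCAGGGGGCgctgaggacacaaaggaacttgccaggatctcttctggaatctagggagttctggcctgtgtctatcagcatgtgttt
The heptamer after Ighv2-2 has 7 of 7 letters of the consensus CACAGTG, and those after Ighv5-4, Ighv5-2 and Ighv2-3 read CACAATG, with 6 of 7. Of the 90 annotated VH windows that begin with CAC, 71 begin with CACAGTG and 9 with CACAATG. The nonamer shares 7 of 9 letters with the consensus ACAAAAACC after Ighv2-2 and 8 of 9 after Ighv5-4. All 4 flanks hold the same CCAGCAGGGGGC on the same strand, from base 61 after the Ighv2 genes and from base 59 after the Ighv5 genes. On either strand, 25 of 110 annotated VH windows (22.7%) hold a match. A match is a description of letters and was not tested for binding.

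Joins at both members were of the coding-end kind. At Ighv2-2-like 98.9% and at Ighv5-4-like 99.2% of junctions had the prey in plus orientation, in which the VH coding end faces the bait. Most lay close together: 91.1% of Ighv2-2-like and 88.6% of Ighv5-4-like plus-orientation joins were within 5 bases of the most used position. That single position took 28.4% of them at Ighv2-2-like and 45.8% at Ighv5-4-like. Between bait and prey alignment lay a median of 14 and 15 bases, the stretch that holds the D segment and added bases. No row exceeds 30 such bases, so longer joins are outside these data.

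Across the 13 groups, the share of all junctions at Ighv2-2-like was highest in the untreated IGCR1-deleted line, at 6.53% ± 0.33 (SD, n = 4), followed by bone marrow at 1.98% ± 0.226 (SD, n = 6) and the untreated parental line at 1.04% ± 0.408 (SD, n = 4). Replicates of these 3 groups did not overlap between neighbours in the order. Then came the untreated OsTIR1-only line at 0.866% ± 0.171, the parental line with IAA at 0.865% ± 0.0736, the IGCR1-deleted line with IAA at 0.754% ± 0.384 and the OsTIR1-only line with IAA at 0.684% ± 0.0513 (SD, n = 4 each). Each of these overlapped its neighbour. Below them, and not overlapping the last of them, lay the CTCF-tag-only line at 0.418% ± 0.109 without and 0.36% ± 0.136 with IAA (SD, n = 4 each). Within that range fell the CTCFdegron line at 0.38% ± 0.176 without and 0.375% ± 0.121 with IAA (SD, n = 6 each). The untreated Rad21degron line was lowest of the groups with junctions, at 0.279% ± 0.00445 (SD, n = 3).

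Ighv5-4-like followed another order. Its share was highest in the IAA-treated CTCFdegron line, at 1.79% ± 0.341 (SD, n = 6). The untreated IGCR1-deleted line followed at 1.13% ± 0.137 (SD, n = 4) and bone marrow at 1.1% ± 0.143 (SD, n = 6), and each of these 3 groups overlapped its neighbour. All other groups lay below bone marrow without overlap, from 0.444% ± 0.156 (SD, n = 4) in the untreated OsTIR1-only line to 0.119% ± 0.0239 (SD, n = 3) in the untreated Rad21degron line and 0.0317% ± 0.0422 (SD, n = 4) in the IGCR1-deleted line with IAA. Among VH segments, Ighv2-2-like ranked 2nd, behind Ighv5-2, in 10 of the 12 groups in which it had junctions, 4th in the untreated and 15th in the IAA-treated CTCFdegron line. Ighv5-4-like ranked 3rd in 6 of those groups and 4th to 8th in the others.

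**Figure D1:**
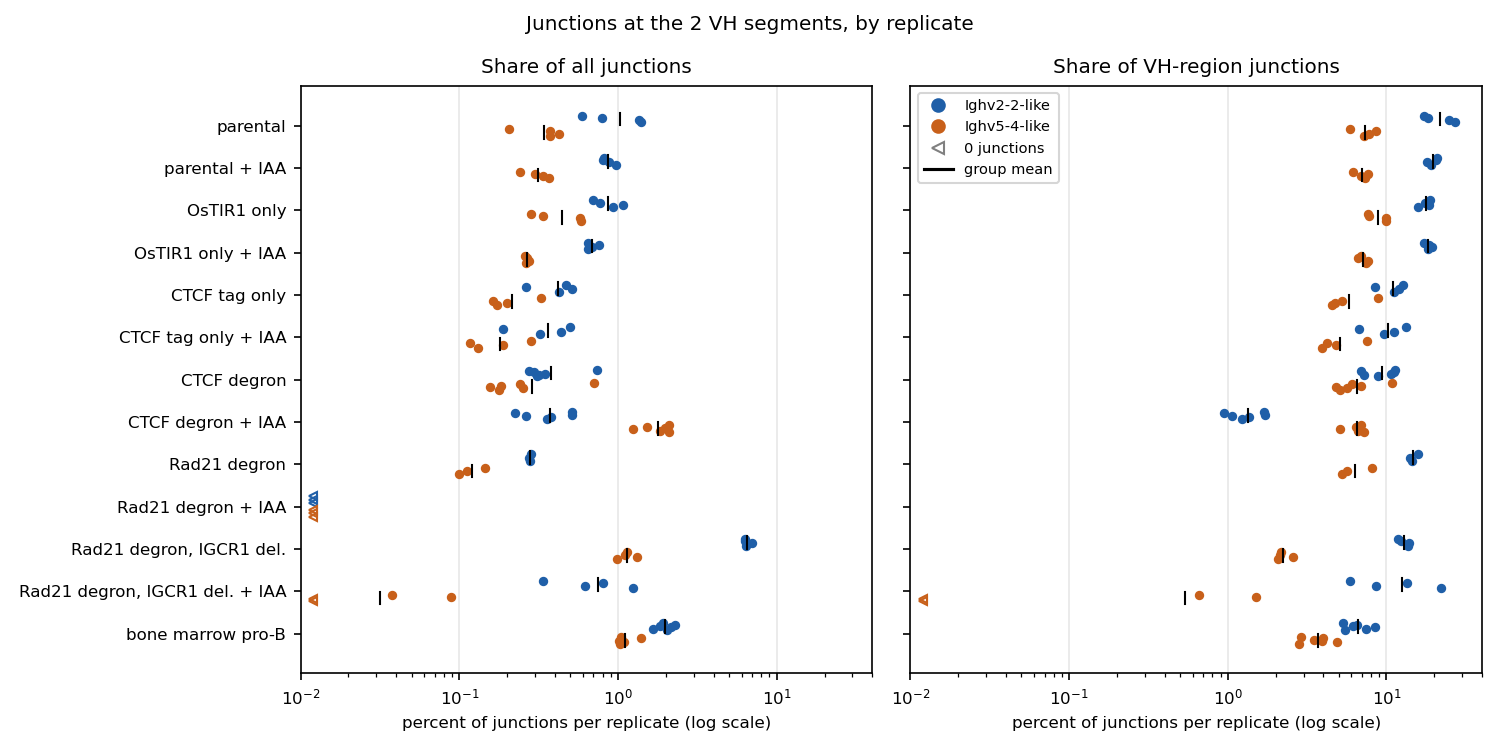
Junctions at Ighv2-2-like (blue) and Ighv5-4-like (orange) as a percent of all junctions (left) and of VH-region junctions (right), on log axes; each point is a replicate, black bars are group means, and open triangles at the edge mark replicates with 0 junctions. Ighv2-2-like lies to the right of Ighv5-4-like in the mean of every group with junctions at them except the CTCF degron with IAA.

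The CTCFdegron comparison asks what loss of CTCF does to VH use. The 2 neighbours parted: Ighv5-4-like rose 7.36-fold as a share of all junctions, while Ighv2-2-like, 9219 bp nearer to the D segments, held 0.38% without and 0.375% with IAA. Within the VH region Ighv2-2-like fell 6.82-fold and Ighv5-4-like held 6.55% and 6.48%. VH junctions as a whole made up 4.05% ± 1.36 of all junctions without and 27.5% ± 2.78 with IAA (SD, n = 6 each).

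Ighv5-4-like held 0.156%, 0.211% and 0.709% of all junctions (lowest, median and highest of 6) without IAA, and 1.25%, 1.9% and 2.1% with it. No replicates overlapped. The log2 change was 2.88 ± 0.26 (SE; adjusted p = 1.99e-15, limma with Benjamini-Hochberg over 70 tested segments). Ighv2-2-like held 0.274%, 0.314% and 0.736% without and 0.224%, 0.369% and 0.515% with IAA, and the groups overlapped. Its log2 change of 0.03 ± 0.27 (SE; limma adjusted p = 0.903) became −0.61 (adjusted p = 0.0334) when identical junctions of a library were counted once, and −2.34 (adjusted p = 1.65e-10) with median-of-ratios scaling. Of the 70 segments, 88.6% were called on this scale, 61 higher and 1 lower, with a median log2 change of 2.76, so a call is no particular mark of Ighv5-4-like. Segments could pass the filter through the IAA group alone, and for such segments a higher call was fixed by the filter. Median-of-ratios scaling moved that median to 0.43 and the calls to 26 higher and 20 lower, and Ighv5-4-like then had a log2 change of 0.51 (adjusted p = 0.123).

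As a share of VH junctions, Ighv2-2-like held 6.89%, 9.75% and 11.3% (lowest, median and highest of 6) without and 0.946%, 1.3% and 1.72% with IAA. Every IAA replicate lay below every untreated replicate. This was a log2 change of −2.77 ± 0.2 (SE; limma adjusted p = 2.06e-09, 54 VH segments tested). Ighv5-4-like held 4.79%, 5.85% and 10.9% without and 5.1%, 6.62% and 7.22% with IAA, with a log2 change of 0.05 ± 0.18 (SE; adjusted p = 0.849). On this scale 48.1% of tested segments were called, 18 higher and 8 lower. Untreated replicate 1 stood above the others for both members (0.736% at Ighv2-2-like and 0.709% at Ighv5-4-like, against at most 0.347% and 0.25%); without any single replicate the 4 changes ran from −0.08 to 0.21, 2.75 to 3.15, −2.86 to −2.69 and −0.03 to 0.22, in the order given.

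The ratio of Ighv2-2-like to Ighv5-4-like junctions needs no total and so no choice of scale. Its geometric mean was 1.45 without IAA (replicates from 1.04 to 2.22) and 0.204 with IAA (0.149 to 0.261). All 6 IAA replicates lay below 1 and all 6 untreated replicates above it. The difference in log2 ratio was −2.83, a 7.14-fold lower ratio (two-sided exact permutation test with p = 0.00216, which is the minimum for 6 against 6; Benjamini-Hochberg 0.0108 over 10 comparisons). All 12 replicates came from a single sequencing run.

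Along the first 10 VH segments, 9 were tested, and 7 rose and none fell as a share of all junctions. The 2 without a call were Ighv5-2, the VH most used without IAA, with a log2 change of −0.12 ± 0.27 (SE; limma adjusted p = 0.707), and Ighv2-2-like. From Ighv5-4-like onward the changes were 2.88, 3.66 (Ighv2-3-like_114869105), 3.55 (Ighv5-6-like_114883413), 6.27 (Ighv5-9-like_114919648), 2.72 (Ighv5-12-like_114961492) and 3.71 (Ighv2-6-like_114976040). At least Ighv5-9-like_114919648, with 1320 plus-orientation junctions in all libraries, passed the filter only through the IAA group. Its rise on either scale was therefore fixed by the filter. The first used VH, Ighv5-6-like_114830805, lies on the D side of Ighv5-2 and rose by 2.67, so the order was not graded from the D side. The median over the 9 was 2.88, close to that of all 70 tested segments. As shares of VH junctions, 4 of the 9 rose and 2 fell. The 2 that fell were Ighv5-2, by 2.94, and Ighv2-2-like, by 2.77.

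**Figure D2:**
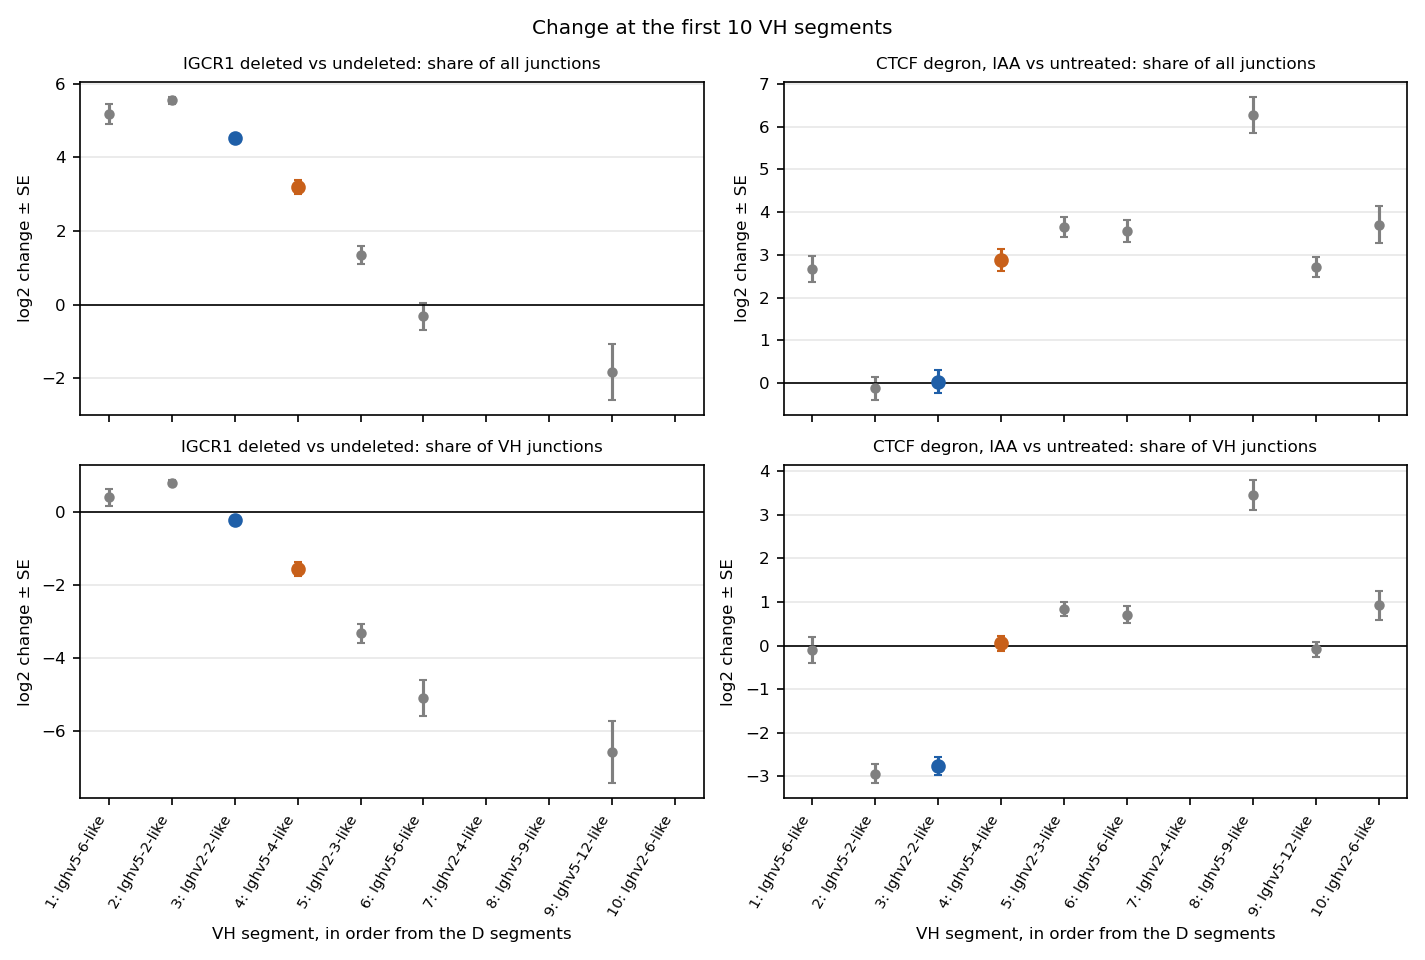
Log2 change ± SE (limma) at the first 10 VH segments in order from the D segments (x axis), for the IGCR1 deletion (left) and IAA in the CTCF degron line (right), as shares of all junctions (top) and of VH junctions (bottom); blue is Ighv2-2-like, orange Ighv5-4-like, and segments below the filter have no point. With IGCR1 deleted the change on the upper left is 5.17 at the first used VH and 5.55 at Ighv5-2, and then falls to 4.52, 3.2 and 1.34 at the next segments. On the upper right Ighv2-2-like sits at 0.03 and Ighv5-4-like at 2.88.

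Whether these effects differ from that of IAA alone was tested with an interaction term against each of the 3 control lines. The effect on the share of all junctions at Ighv5-4-like exceeded that in the parental, OsTIR1-only and CTCF-tag-only lines by 3.09, 3.67 and 3.17 on the log2 scale (limma adjusted p = 2.76e-09, 1.25e-07 and 1.33e-06). The effect on the share of VH junctions at Ighv2-2-like was more negative by −2.52, −2.8 and −2.63 (adjusted p = 3.52e-09, 3.41e-09 and 7.32e-07). For Ighv2-2-like as a share of all junctions the differences were 0.42, 0.42 and 0.31 (adjusted p from 0.29 to 0.546), and for Ighv5-4-like as a share of VH junctions 0.13, 0.44 and 0.19 (adjusted p from 0.448 to 0.741). The interaction was called at 68.3%, 65% and 65.8% of all tested segments on the first scale and at 19.6%, 9.09% and 8.62% of VH segments on the second.

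In the control lines, which keep CTCF, neither member passed the test with IAA in the fit of all replicates without a block. In the parental line Ighv2-2-like held 0.596%, 0.787%, 1.36% and 1.4% of all junctions in untreated replicates 1 to 4, and 0.815%, 0.804%, 0.876% and 0.964% with IAA. Ighv5-4-like held 0.204%, 0.37%, 0.424% and 0.375%, against 0.24%, 0.3%, 0.336% and 0.368%. The ranges overlapped at both, and the log2 changes were −0.38 ± 0.22 and −0.18 ± 0.19 (SE; limma adjusted p = 0.27 and 0.544; 28.1% of 32 segments called, 8 higher and 1 lower, or 3 and 2 with median-of-ratios scaling). As shares of VH junctions the changes were −0.29 ± 0.14 and −0.07 ± 0.13 (adjusted p = 0.359 and 0.725), with 0.0% of 14 segments called, 0 at an unadjusted p under 0.05, and 1 called without untreated replicate 1. Replicates 3 and 4 of the untreated group shared a run with replicates 3 and 4 of the IAA group. Within that run the mean share of Ighv2-2-like was 1.38% without and 0.92% with IAA, and with the run as a block its log2 change was −0.59 (adjusted p = 1.13e-09), on the VH scale −0.48 (adjusted p = 1.07e-09). Without a filter on low tallies Ighv2-2-like also passed on the VH scale (−0.42, adjusted p = 1.22e-05).

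In the OsTIR1-only line, Ighv2-2-like held 0.694%, 0.766%, 1.08% and 0.928% of all junctions without IAA and 0.643%, 0.755%, 0.689% and 0.65% with it. Ighv5-4-like held 0.282%, 0.338%, 0.574% and 0.58%, against 0.258%, 0.267%, 0.274% and 0.263%. Each IAA replicate of Ighv5-4-like thus lay below every untreated replicate, and those of Ighv2-2-like overlapped. The log2 changes were −0.33 ± 0.17 and −0.7 ± 0.25 (SE; limma adjusted p = 0.206 and 0.116; 4.35% of 23 segments called, 5 at an unadjusted p under 0.05). In this line replicates of the same number moved jointly, and with that number as a block the changes were −0.38 (adjusted p = 0.0304) and −0.76 (adjusted p = 0.0107), with 13 segments called. Without the block, the count of 1 became 0 without IAA replicate 2, 3 or 4 or untreated replicate 2 or 4, and 2 without untreated replicate 1. On the VH scale Ighv5-4-like changed by −0.36 ± 0.11 (adjusted p = 0.0542; 0.0% of 8 called, 1 at an unadjusted p under 0.05) and by −0.29 with the block (adjusted p = 0.00533), while Ighv2-2-like changed by 0.08 ± 0.07 (adjusted p = 0.903). The call at Ighv5-4-like passed without untreated replicate 1 on both scales (−0.87, adjusted p = 0.0278; VH −0.41, adjusted p = 0.0416) and without untreated replicate 2 on the VH scale (−0.41, adjusted p = 0.0355), as it did there with b libraries alone (−0.41, adjusted p = 0.0238). Within the 2 runs of this line the mean share of Ighv5-4-like was 0.31% without and 0.263% with IAA, and 0.577% and 0.269%.

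The ratio of Ighv2-2-like to Ighv5-4-like in this line was 2.02 without and 2.57 with IAA, a log2 difference of 0.34 (exact permutation p = 0.0286, the minimum for 4 against 4; adjusted over the 10 comparisons 0.0408). The paired sign-flip test gave an exact p = 0.125, the smallest it allows for 4 pairs. The direction is opposite to that in the CTCFdegron line. In the parental line the ratio was 2.93 without and 2.8 with IAA (exact permutation p = 0.8), and in the CTCF-tag-only line 1.96 and 2 (exact permutation p = 0.886).

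In the CTCF-tag-only line neither member passed the test. Ighv2-2-like held 0.473%, 0.262%, 0.51% and 0.425% of all junctions without and 0.495%, 0.187%, 0.436% and 0.321% with IAA, and Ighv5-4-like 0.328%, 0.162%, 0.201% and 0.172%, against 0.281%, 0.117%, 0.189% and 0.131%. The ranges overlapped, with log2 changes of −0.27 ± 0.31 and −0.29 ± 0.32 (SE; limma adjusted p = 1 for both). On this scale 0.0% of 74 segments were called, with 4 at an unadjusted p under 0.05, and on the VH scale 0.0% of 55, with 1. Here too replicates of the same number moved jointly, and the replicate block called 13 and 2 segments, neither member among them.

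Before any IAA, the CTCFdegron line already used the members in another proportion than the parental line did. Ighv2-2-like was 3.1-fold lower as a share of all junctions (0.38% ± 0.176, SD, n = 6, against 1.04% ± 0.408, SD, n = 4; log2 change −1.63 ± 0.29, SE, limma adjusted p = 1.16e-07; 61.8% of 34 segments called, 17 higher and 4 lower). Ighv5-4-like stood at 0.286% ± 0.211 against 0.343% ± 0.0957 (log2 change −0.58 ± 0.31, adjusted p = 0.102). With median-of-ratios scaling 16 segments were higher and 10 lower, and the members changed by −1.78 and −0.76 (adjusted p = 1.96e-05 and 0.0287). On the VH scale the changes were −1.19 ± 0.22 (adjusted p = 0.000115) and −0.22 ± 0.25 (adjusted p = 0.391), with 95% of 20 segments called. Without untreated CTCFdegron replicate 1, Ighv5-4-like passed on both scales (−0.79, adjusted p = 0.0052; VH −0.4, adjusted p = 0.0498). The ratio was 1.45 against 2.93 (log2 difference −1.01, exact permutation p = 0.0143; Benjamini-Hochberg 0.0286). No run held both lines, so line and run cannot be told apart.

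**Figure D3:**
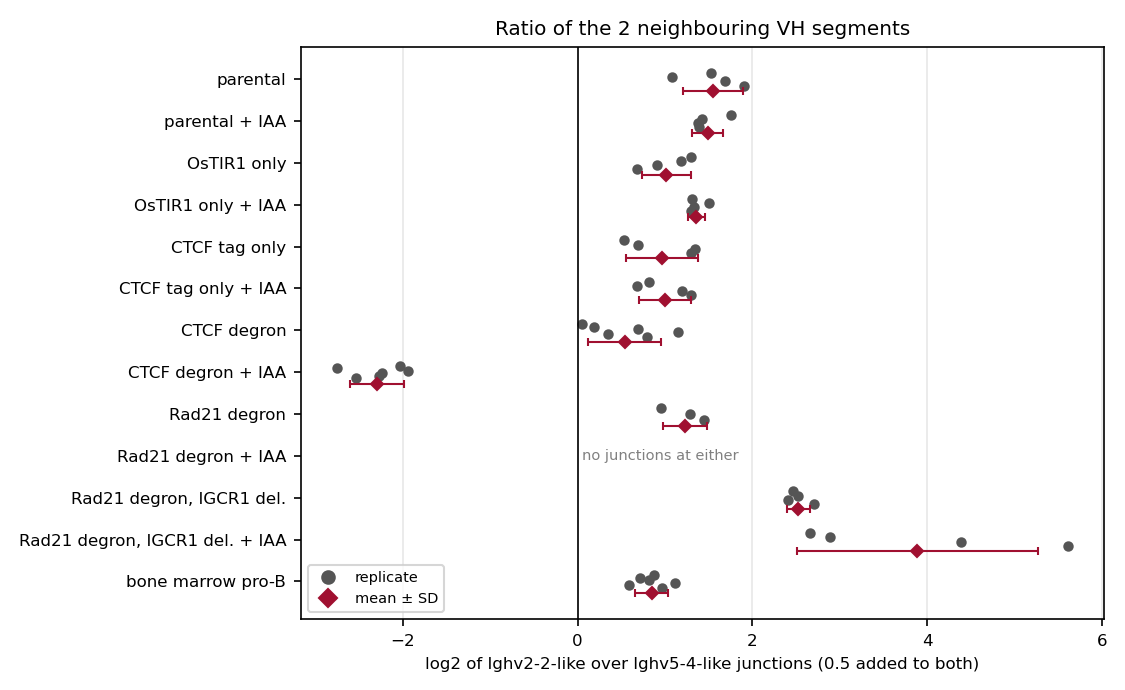
Log2 of the ratio of Ighv2-2-like to Ighv5-4-like junctions (0.5 added to both) in each replicate (grey points), with the mean ± SD of each group (red diamonds and bars). Only the CTCF degron with IAA lies below 0, at a mean of −2.3, and the untreated IGCR1-deleted line lies at 2.53. In the IGCR1-deleted line with IAA, the replicates at 4.39 and 5.61 have 0 Ighv5-4-like junctions, so these points and the group's mean and SD depend on the added 0.5.

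Deletion of IGCR1 from the Rad21degron line, which takes away the CTCF-bound barrier between D and VH segments, went with higher use of both members, Ighv2-2-like 22.9-fold and Ighv5-4-like 9.19-fold as shares of all junctions. Ighv2-2-like held 6.31%, 6.34%, 7.02% and 6.44% in the 4 deleted replicates and 0.284%, 0.275% and 0.277% in the 3 undeleted ones. Ighv5-4-like held 1.14%, 1.1%, 1.31% and 0.982%, against 0.146%, 0.112% and 0.1%. All deleted replicates lay above all undeleted ones at both. The log2 changes were 4.52 ± 0.1 and 3.2 ± 0.19 (SE; limma adjusted p = 2.14e-11 and 8.59e-08), and 85.0% of 20 tested segments were called, 6 higher and 11 lower; with median-of-ratios scaling 6 were higher and 5 lower, and the members changed by 4.97 and 3.61. The deleted line has b libraries only, and the undeleted b libraries alone had means of 0.261% and 0.108%. No run held both lines, so line and run cannot be told apart.

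VH junctions made up 50.7% ± 2.33 (SD, n = 4) of all junctions with the deletion and 1.9% ± 0.0787 (SD, n = 3) without it, and Ighv5-2 alone held 40% of all junctions in the deleted line. Within the VH region Ighv2-2-like held 11.9%, 12.3%, 13.8% and 13.6%, against 15.7%, 14% and 14.5% without the deletion, all deleted replicates below the undeleted ones (log2 change −0.21 ± 0.11, SE; limma adjusted p = 0.0773; −0.25, adjusted p = 0.0398, without deleted replicate 4). Ighv5-4-like fell 2.95-fold on this scale, from 8.07%, 5.68% and 5.25% to 2.15%, 2.14%, 2.59% and 2.07% (log2 change −1.56 ± 0.2, adjusted p = 3.49e-09; 71.4% of 7 segments called). From Ighv5-2 onward the change on the VH scale went from 0.81 through −0.21 and −1.56 at the members to −3.32 at Ighv2-3-like_114869105. It was −5.09 ± 0.49 at Ighv5-6-like_114883413 and −6.57 ± 0.85 (SE) at Ighv5-12-like_114961492. Both of these segments had few junctions in the deleted line and passed the filter only through the undeleted line. The first used VH, Ighv5-6-like_114830805, lies on the D side of Ighv5-2 and changed by 0.41 ± 0.23 (SE), so the order was not graded from the D side. The members lie on the descent from Ighv5-2. On the scale of all junctions Ighv5-4-like was the next to last of the listed segments with a rise: 5 of the 7 tested among the first 10 rose and 1 fell. The ratio of Ighv2-2-like to Ighv5-4-like was 5.76 with and 2.35 without the deletion (log2 difference 1.3, exact permutation p = 0.0286, adjusted 0.0408; 4 against 3 allow no lower p).

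Loss of Rad21 left no junction at either member. In the 3 IAA-treated replicates of the undeleted line, 5566 junctions held 0 at Ighv2-2-like and 0 at Ighv5-4-like, where the untreated replicates had 132, 69 and 116, and 68, 28 and 42. Taken as 3 junctions over the group, a count of 0 allows a share of up to 0.0539%, so Ighv2-2-like was at least 5.17-fold and Ighv5-4-like at least 2.22-fold lower. Limma called both lower (adjusted p = 3.59e-06 and 0.00128; 63.2% of 19 segments called, 1 higher and 11 lower, median −1.2), but both passed the filter only through the untreated replicates, so this direction was fixed by the filter. Without the filter 95 segments were called and the median was 2.82, that is, of the other sign. The call at Ighv5-4-like did not hold with b libraries alone (adjusted p = 0.0908) or with median-of-ratios scaling (adjusted p = 0.144), where 1 segment was higher and 3 lower. Leaving out untreated replicate 1, 2 or 3 brought the 12 calls to 6, 7 and 7. The IAA replicates held between 0 and 4 junctions in the whole VH region, so no share of VH junctions was tested. Each pair of replicates had its own run, with 0 against untreated shares of 0.284%, 0.275% and 0.277% at Ighv2-2-like within runs.

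With IGCR1 deleted, both members fell as shares of all junctions with loss of Rad21. Ighv2-2-like held 0.337%, 0.802%, 0.622% and 1.25% of all junctions in the IAA-treated replicates (9, 18, 10 and 24 junctions), each below every untreated replicate (6.31% to 7.02%). Ighv5-4-like held 1, 2, 0 and 0 junctions there, against 154, 169, 70 and 142 without IAA. The log2 changes were −3.24 ± 0.32 and −4.54 ± 0.39 (SE; limma adjusted p = 2.92e-06 and 1.07e-06; 50% of 18 segments called, 3 higher and 6 lower). Ighv5-4-like passed the filter only through the untreated replicates, so its call is no independent evidence of the fall. Since its change rests on 3 junctions, its pooled ratio is given with its counting interval: the untreated share was 30.9 times the IAA share (exact 95% interval 10.5 to 150). For Ighv2-2-like the pooled ratio was 8.9 (6.91 to 11.7).

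Among VH junctions of this line, Ighv2-2-like held 12.9% ± 0.938 without and 12.5% ± 7.08 with IAA (SD, n = 4 each; log2 change −0.12 ± 0.35, limma adjusted p = 0.858), while Ighv5-4-like went from 2.24% ± 0.237 to 0.539% ± 0.713 (−1.49 ± 0.38, adjusted p = 0.0229; 20% of 5 segments called). Here too Ighv5-4-like passed the filter only through the untreated replicates, so its call is no independent evidence of a fall. That call was lost without IAA replicate 3 (−1.34, adjusted p = 0.0555) or 4 (−1.22, adjusted p = 0.096), with identical junctions counted once (−0.84, adjusted p = 0.0886) and with the replicate block (−1.37, adjusted p = 0.134). Without IAA replicate 1, 2 segments were called. The ratio of the members was 5.31 to 6.54 without IAA and, with 0.5 added to both tallies, 6.33 and 7.4 in IAA replicates 1 and 2. In IAA replicates 3 and 4 it has no value of its own, since 10 and 24 junctions at Ighv2-2-like stood against 0 at Ighv5-4-like. The difference in ratio did not pass the test (exact permutation p = 0.0571, adjusted 0.0714), which rests on the added 0.5 in those replicates. Within the run of 3 pairs the mean shares of Ighv2-2-like were 6.37% and 0.798%, and in the other 7.02% and 0.622%.

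With IAA, the members could be compared between the deleted and undeleted line only as tallies, 61 and 3 junctions of 8434 against 0 and 0 of 5566, because both fell under the filter of 10 junctions per replicate. In that comparison 15.4% of 13 segments were called, and 5 in place of 2 without undeleted replicate 3.

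Bone marrow pro-B cells spread VH use over more of the locus than the parental line did, and the members were a smaller portion of it. Of all junctions, Ighv2-2-like held 1.65%, 1.98% and 2.27% (lowest, median and highest of 6) and Ighv5-4-like 1.01%, 1.04% and 1.39%, all above the parental replicates at both. The log2 changes of 0.69 ± 0.15 and 1.54 ± 0.18 (SE; limma adjusted p = 7.74e-05 and 8.24e-10; 98.6% of 143 segments called) became −1.47 and −0.64 with median-of-ratios scaling (adjusted p = 2.67e-08 and 0.00249), and −0.48 and 0.16 with identical junctions counted once (adjusted p = 0.152 and 0.559). That count kept 35.7% and 32.3% of the members' junctions in bone marrow and 75.1% and 77.4% in the untreated parental line. The median over the 143 tested segments was 5.34, and 3.2 with median-of-ratios scaling, with 137 higher and 4 lower calls in the first and 114 and 15 in the second. Segments could pass the filter through bone marrow alone, where 146 VH segments had junctions, against 115 in the untreated parental line. For such segments a higher call was fixed by the filter.

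Of VH junctions, Ighv2-2-like held 6.58% ± 1.19 (SD, n = 6) in bone marrow and 21.9% ± 4.86 (SD, n = 4) in the parental line, and Ighv5-4-like 3.68% ± 0.785 and 7.37% ± 1.12. Neither pair of groups overlapped. The log2 changes were −1.98 ± 0.12 and −1.12 ± 0.15 (SE; limma adjusted p = 6.79e-13 and 3.67e-07; 92.7% of 123 VH segments called, 108 higher and 6 lower). The ratio of the members was 1.8 against 2.93 (log2 difference −0.7, exact permutation p = 0.00952; Benjamini-Hochberg 0.0238). Bone marrow and lines shared no run.

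Set beside bone marrow, the CTCFdegron line with IAA used Ighv2-2-like less and Ighv5-4-like more. The log2 differences were −2.45 ± 0.21 and 0.7 ± 0.16 as shares of all junctions (SE; limma adjusted p = 2.46e-13 and 0.000125; 85.2% of 142 segments called) and −2.28 ± 0.18 and 0.9 ± 0.14 as shares of VH junctions (adjusted p = 1.17e-11 and 1.38e-06; 88.5% of 122 called). Calls on the first scale were 23 higher and 98 lower, and 40 and 56 with median-of-ratios scaling, where the members differed by −1.32 and 1.83. The ratio was 8.83-fold lower than in bone marrow (exact permutation p = 0.00216; Benjamini-Hochberg 0.0108). Against the untreated IGCR1-deleted line, in which the barrier is lost but CTCF is not, Ighv2-2-like was lower by 4.17 on the log2 scale (−4.17 ± 0.23, adjusted p = 1.38e-22) and Ighv5-4-like differed by 0.67 ± 0.24 (adjusted p = 0.0092; 88.2% of 68 called), or by 0.33 with median-of-ratios scaling (adjusted p = 0.282). As shares of VH junctions the differences were −3.26 ± 0.21 and 1.58 ± 0.22 (limma adjusted p = 5.84e-14 and 1.24e-07). On that scale 100.0% of 53 segments were called, 50 higher and 3 lower. Only 40 VH segments had junctions in the untreated IGCR1-deleted line, so some of the 53 passed the filter through the CTCFdegron line alone. For such segments a higher call was fixed by the filter on both scales. The ratio differed 28.3-fold (exact permutation p = 0.00476, adjusted 0.0159; 6 against 4 allow no lower p). These groups are other lines or other cells from other runs, which cannot be told apart from the treatment, and they serve several of the comparisons above.

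The D segment that lies between JH4 and each member was read from the stretch between bait and prey, where at least 8 bases matched. A D family could be assigned in 62.1% of Ighv2-2-like and 64% of Ighv5-4-like reads. Ighd2, the family with most D segments, was the most frequent at both members in each of the groups with enough reads except for Ighv5-4-like in the untreated CTCF-tag-only line. There Ighd1, the family that includes DFL16.1, had 51.4% ± 12.4 and Ighd2 41.9% ± 9.82 (SD, n = 4 each). Ighd4, the D nearest to JH (DQ52), made up between 1.58% and 6.6% of assigned reads in the groups with an intact IGCR1, group means over both members. Ighd4 has 11 coding bases, against 17 in Ighd2 and 17 or 23 in Ighd1, so less trimming costs it the match of 8 bases. Shares were not corrected for this, so they do not rank the families by true use.

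At both members the untreated IGCR1-deleted line had a higher mean share of Ighd4 and a lower one of Ighd1 than every group with an intact IGCR1. Bone marrow came next in Ighd1, at 21.4% at Ighv2-2-like and 17.4% at Ighv5-4-like. Its Ighd2 shares of 74.7% and 78.3% were near those of the deleted line (75.4% and 75%), so Ighd2 did not set that line apart. At Ighv2-2-like, Ighd4 had 15.3% ± 1.92 of assigned reads in the deleted line (13.5% to 17.1%, n = 4) and 5.85% ± 1.69 in the undeleted line (4.76% to 7.79%, n = 3). Ighd1 had 7.67% ± 2.23 and 37% ± 2.99, and Ighd2 75.4% ± 2.74 and 56.6% ± 2.36 (SD). None of these ranges overlapped. At Ighv5-4-like, Ighd4 had 13.1% ± 10.1 (6.67% to 27.9%) and 6.41% ± 2.33 (4.88% to 9.09%), which overlapped, and Ighd1 8.28% ± 3.56 and 37.9% ± 7.03, which did not. These values were given no test. Both members thus had a lower share of Ighd1 in the deleted line, as did neighbours on either side. Ighd1 had 8.31% in the deleted and 22.3% in the undeleted line at Ighv5-2, without overlap. It had 7.73% and 12.2% at Ighv5-6-like_114830805 and 11.8% and 39.7% at Ighv2-3-like_114869105, and these ranges overlapped. The shift is thus no particular mark of the members. No run held both lines, so line and run cannot be told apart.

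Of the 3 tests made on D use, expressed as Ighd4 over Ighd4 and Ighd1 together, none passed (adjusted exact permutation p = 0.572 for each, over 5 tests on frame and D use). With loss of CTCF it was 11.9% ± 7.26 without and 18.1% ± 10.7 with IAA at Ighv2-2-like (exact permutation p = 0.253) and 9.77% ± 10.4 and 16.4% ± 6.04 at Ighv5-4-like (SD, n = 6 each; exact permutation p = 0.199; 0.039 without untreated replicate 6). With loss of Rad21 in the IGCR1-deleted line it was 66.9% ± 7.55 (SD, n = 4) without and 83.3% ± 28.9 (SD, n = 3) with IAA at Ighv2-2-like (exact permutation p = 0.343), where the IAA values rest on only 4, 3 and 2 reads of Ighd4 or Ighd1 per replicate. At Ighv5-4-like that group had too few reads.

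**Figure D4:**
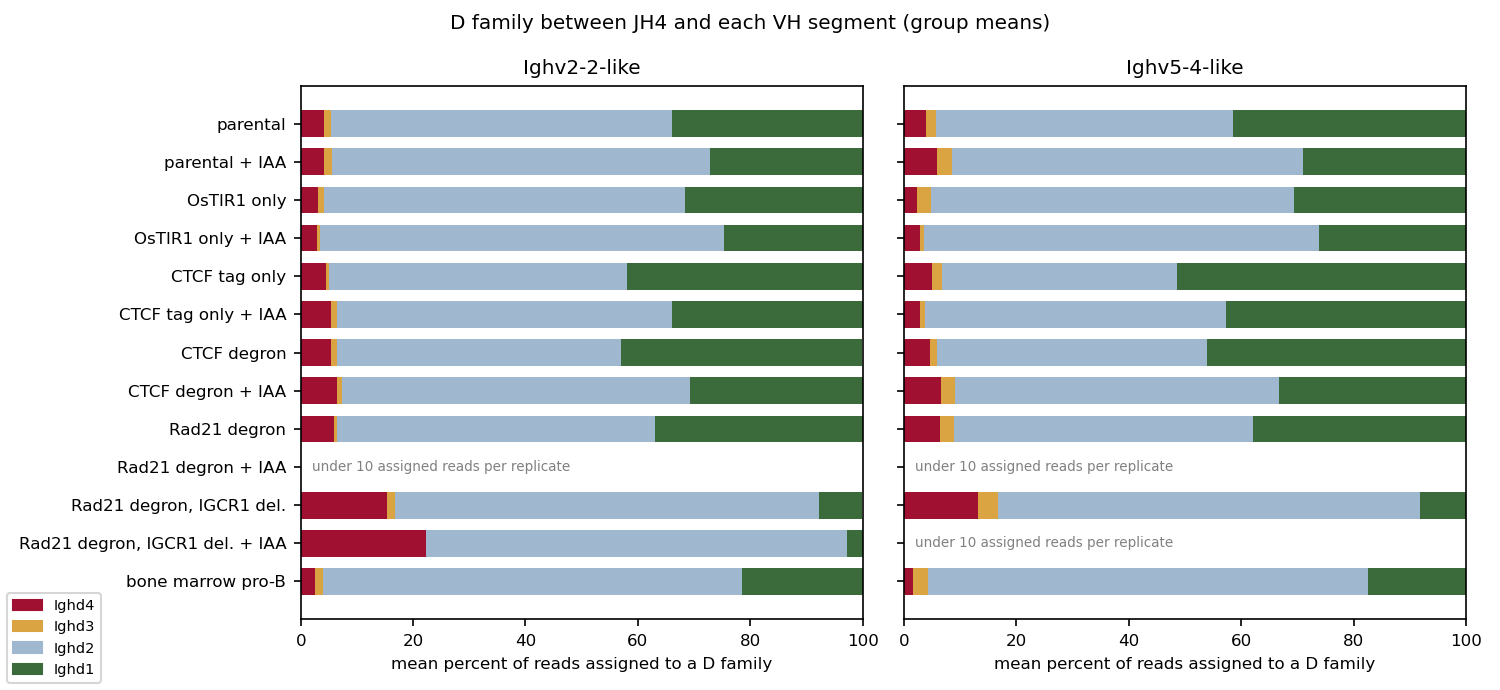
Mean percent of assigned reads by D family between JH4 and each member, stacked to 100 per group, for Ighv2-2-like (left) and Ighv5-4-like (right); groups whose replicates had under 10 assigned reads have no bar. The untreated IGCR1-deleted line has more Ighd4 (15.3% and 13.1%) and less Ighd1 (7.67% and 8.28%) than the undeleted Rad21 degron (5.85% and 6.41%, 37% and 37.9%).

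Whether a join keeps the reading frame from the VH cysteine to JH4 could be read in 90.5% of Ighv2-2-like and 89.5% of Ighv5-4-like reads. At Ighv2-2-like the in-frame share was 35.4% ± 6.32 (SD, n = 6) in bone marrow and 34% ± 4.46 (SD, n = 4) in the untreated parental line (exact permutation p = 0.743, adjusted 0.819). At Ighv5-4-like it was 36.6% ± 6.04 and 35.7% ± 3.47 (exact permutation p = 0.819, adjusted 0.819). Means of the other groups ran from 26% to 36.1% at Ighv2-2-like and from 24.9% to 36.5% at Ighv5-4-like, and the lowest, in the IGCR1-deleted line with IAA and the untreated Rad21degron line, rested on 48 and 114 reads.

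The patterns most like those of the members were those of their neighbours. Over the 13 group means, as log2 of the percent of all junctions plus 0.001, and among 132 VH segments, Ighv2-2-like correlated best with Ighv5-2 (Pearson r = 0.93), then Ighv5-6-like_114830805 (0.918) and Ighv5-4-like (0.86). Ighv5-4-like correlated best with Ighv2-3-like_114869105 (0.895), then Ighv2-2-like (0.86) and Ighv5-6-like_114883413 (0.852). The group means share library totals and differ widely in VH share, and these values are a description.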

How the data were processed

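Each deposited table lists 1 junction read per row with its prey position. These values are positions in the authors' own format and not a normalised unit; per the labels, reads were aligned to mm9 with the Igh sequence of another strain put in (not used here), and the submitters' processing notes name Bowtie2 and mm9. No row of the deposited tables has more than 30 bases between bait and prey. Duplicates are marked in 3 bone marrow replicates alone, so the mark was not used. The 12 off-target tables were not used.

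Junctions within 100 bp of a segment were tallied, and the a and b libraries of a replicate summed. These share a run and barcode and no read, and their prey positions are shifted by 3 bases in opposite directions. The shift was corrected where segments were located and where joins were placed within them, but not in the tallies. Segment tallies were fitted per comparison (12 comparisons) with limma 3.58.1 (voom) in R 4.3.3, relative to all junctions and to VH junctions, for segments with a mean of at least 10 junctions per replicate, with Benjamini-Hochberg adjustment over all of them and a threshold of 0.05. This mean was taken over both groups, so a segment could pass through either group alone, which fixed the direction of such a call. The VH scale was not fitted where a replicate had under 10 VH junctions. Ratios (0.5 added to both tallies), frame and D use were compared with two-sided exact permutation tests in SciPy 1.17.1. Other work used Python 3.11.15, NumPy 2.4.6, pandas 2.3.3, blastn 2.17.0 and matplotlib 3.10.9. D segments were matched over at least 8 bases.

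The named segments were the members, the 2 VH on either side and the 3 most like each member; the first 10 used VH were a further list. Members and lists were chosen with earlier results of these data known. The interaction term and the ratio over reads matching their own segment best were added after the data were seen. On 50 simulated tables per comparison, 91.2% to 100% of 4-fold changes were recovered, and 2.6% to 11.5% of calls were false; the Rad21degron IAA comparison was the poorest on both counts. The simulated tables had the same fixed spread in every group and changes of random direction. In the data the spread differed between groups and many changes were one-sided, so these rates need not hold there. Replicate numbers were checked for pairing: deviations of same-numbered replicates correlated above 0.1 in every pair of the OsTIR1-only (0.657 to 0.869) and CTCF-tag-only line (0.496 to 0.847) and in no other comparison. Alternatives were other scaling, no filter, identical junctions counted once, a 20 bp window, b libraries alone, replicate or run blocks, and leaving out each replicate.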

Additional observations from a re-analysis of the deposited data

Results flagged for a closer look

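In groups of 4 to 10 samples, the highest or lowest replicate was set against the spread of the others (Dixon's criterion). It stood apart in 10 of 75 groups tested, where chance alone marks about 1 in 20. Untreated CTCFdegron replicate 1 did so in 3 of them: it held 0.736% of all junctions at Ighv2-2-like (the others 0.274% to 0.347%), 0.709% at Ighv5-4-like (0.156% to 0.25%) and 10.9% of VH junctions at Ighv5-4-like (4.79% to 6.91%). Bone marrow replicate 2 held 1.39% of all junctions at Ighv5-4-like, against 1.01% to 1.09% in the others. Untreated CTCF-tag-only replicate 1 held 8.81% of VH junctions at Ighv5-4-like, against 4.51% to 5.24%. Untreated IGCR1-deleted replicate 3 held 2.59% of VH junctions there, against 2.07% to 2.15%. The log2 ratio of Ighv2-2-like to Ighv5-4-like was 1.5 in IAA-treated OsTIR1-only replicate 2 (the others 1.3 to 1.33) and 1.76 in IAA-treated parental replicate 1 (1.38 to 1.42). The in-frame share at Ighv2-2-like was 43.0% in untreated CTCFdegron replicate 4 (32.9% to 36.1%) and 31.0% in untreated CTCF-tag-only replicate 2 (35.1% to 35.9%).

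The effect of IAA in the CTCFdegron line differed from that in each control line by limma's interaction term. At Ighv5-4-like, as a share of all junctions, the difference from the parental, OsTIR1-only and CTCF-tag-only lines was 3.09, 3.67 and 3.17 on the log2 scale. At Ighv2-2-like, as a share of VH junctions, it was −2.52, −2.8 and −2.63.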

How the results depend on the processing

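Of 302 alternative values of 57 results on the members, leaving replicates in, 267 kept direction and side of the threshold; of 528 values with a replicate left out, 507 did. The cause of the changes was not tested. Values below are log2 changes on the scale of all junctions unless the VH scale is named. With median-of-ratios scaling, Ighv5-4-like lost its call in the Rad21degron line (−1.01), with loss of CTCF (0.51) and against the IGCR1-deleted line (0.33) and gained one in untreated CTCFdegron against parental (−0.76); Ighv2-2-like gained one with loss of CTCF (−2.34, against 0.03), and both reversed between bone marrow and parental (−1.47 and −0.64). With identical junctions counted once, the changes there were −0.48 and 0.16; Ighv2-2-like reversed with loss of CTCF (−0.61), Ighv5-4-like passed in untreated CTCFdegron against parental (−1.27) and lost the VH call in the IGCR1-deleted line with IAA (−0.84), and the OsTIR1 ratio was 0.28. With b libraries alone, Ighv5-4-like changed by −0.87 in the Rad21degron line and by −0.87 in untreated CTCFdegron against parental, and by −0.41 on the VH scale in the OsTIR1-only line. A 20 bp window gave −0.23 for Ighv2-2-like on the VH scale with IGCR1 deleted, and no filter −0.42 for it in the parental line. Reads matching their own segment best left the OsTIR1 ratio at 0.34 (exact permutation p = 0.0857).

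The replicate block gave −0.48 for Ighv2-2-like in the parental line, −0.38 and −0.76 for the members and −0.29 on the VH scale for Ighv5-4-like in the OsTIR1-only line, −1.37 on the VH scale for Ighv5-4-like in the IGCR1-deleted line with IAA (adjusted p = 0.134, limma) and 0.57 for it between CTCFdegron with IAA and IGCR1-deleted. For the ratio, paired sign-flip tests of 3 or 4 pairs, which cannot pass, gave 1.23 with IGCR1 deleted, −1.03 for untreated CTCFdegron against parental, 0.34 in the OsTIR1-only line, −0.67 for bone marrow and −4.77 against IGCR1-deleted. The block changed no other call at the members. The run block gave −0.59 and, on the VH scale, −0.48 for Ighv2-2-like in the parental line, and −0.37, −0.75 and, on the VH scale at Ighv5-4-like, −0.29 in the OsTIR1-only line.

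With each replicate left out in turn, Ighv5-4-like ranged from −1.92 to −1.22 on the VH scale in the IGCR1-deleted line with IAA, from −0.79 to −0.44 and, on the VH scale, −0.4 to −0.13 in untreated CTCFdegron against parental, and from −0.87 to −0.55 and, on the VH scale, −0.41 to −0.29 in the OsTIR1-only line. Ighv2-2-like ranged from −0.26 to −0.17 on the VH scale with IGCR1 deleted. The ratio ranged from 0.79 to 1.77 with IAA in the IGCR1-deleted line, where it depends on the 0.5 added to tallies of 0, from 1.16 to 1.41 with IGCR1 deleted, where 1 replicate fewer cannot pass, and from 0.23 to 0.44 in the OsTIR1-only line. The D share at Ighv5-4-like with loss of CTCF ranged from 4.66 to 9.92 points.

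Counts of called segments moved by over 1.5 times as follows. Without a filter they were 95 in place of 12 in the Rad21degron line (median log2 change 2.82 in place of −1.2), 38 for 9 and, on the VH scale, 40 for 1 in the IGCR1-deleted line with IAA, 26 for 17 and 94 for 5 with IGCR1 deleted, 5 for 2 in its IAA groups, 138 for 62 and 63 for 26 with loss of CTCF, 79 for 21 and 83 for 19 in untreated CTCFdegron against parental, 108 for 60 and 118 for 53 against IGCR1-deleted, 2 for 0 in the parental line on the VH scale and 0 for 1 in the OsTIR1-only line. With identical junctions counted once they were 19 in the Rad21degron line, 0 on the VH scale in the IGCR1-deleted line, 2 for 9 in the parental and 0 in the OsTIR1-only line. With b libraries alone they were 7 in the Rad21degron line, 41 and 16 with loss of CTCF, 12 and 8 in untreated CTCFdegron against parental, 2 on the VH scale in the OsTIR1-only line and 35 on the VH scale against IGCR1-deleted. Median-of-ratios scaling gave 4 in the Rad21degron line, 11 with IGCR1 deleted and 5 in the parental line. The replicate block gave 0 on the VH scale in the IGCR1-deleted line, 13 and 1 in the OsTIR1-only and 13 and 2 in the CTCF-tag-only line, and the run block 15 and 3 in the parental and 11 and 1 in the OsTIR1-only line. Depth limits the IAA groups of the Rad21degron lines most, where a replicate held 1263 to 2668 junctions.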
